A study of Mus musculus with 14 samples.

Results

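The genes described are 46 members of the TGF-beta and BMP signalling pathway, chosen by name for their role in it: ligands, latency proteins, receptors, antagonists, Smads and Id targets. They were taken out of the 30503 genes counted by bulk RNA-seq in 14 clones, each grown in culture from a single tdTomato+ cell of mouse femur bone marrow. All 46 were found in the count table, and 44 passed the filter on low counts. Bmp7 and Gdf10 did not pass it and were not tested.

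TGF-beta, activins and BMPs are secreted dimers that bind pairs of type I and type II receptor kinases. TGF-beta and activin receptors act through Smad2 and Smad3, BMP receptors act through Smad1, Smad5 and Smad9, and both sets of Smads join Smad4 in the nucleus. In the skeleton, BMPs are known for inducing cartilage and bone, while TGF-beta is stored in the matrix in a latent form.

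The comparison asks how this pathway is expressed when p53 is lost in cells marked by Fgfr3-creER, the tamoxifen-inducible Cre that the study uses to mark stromal cells at the inner bone surface. The 5 Fgfr3-WT clones came from mice with Fgfr3-creER and 1 R26R-tdTomato reporter allele, were isolated at P23 and carried no floxed Trp53 allele as labelled. Both Fgfr3-p53 cKO groups carried Trp53fl/fl in addition, and comprised 5 clones from P28 and 4 clones from 4 months of age (P4M). All mice had received tamoxifen at P21. The Fgfr3-WT and P28 clones were at passage 8, and the P4M clones at passage 6 to 8 as labelled. The methods give passage 6 to 8 for all cKO clones together. By the paper, a smaller share of Fgfr3-WT than of P28 cKO clones reached passage 8, and the Fgfr3-WT clones took longer. Age of isolation, time in culture and the share of clones that lasted thus moved with genotype and cannot be told apart from it. Each library is 1 clone, hence the offspring of 1 cell that grew through serial passages, and the labels do not say which clones shared a mouse, so that p values measure the spread between clones. In the column names of the count table the Fgfr3-WT libraries carry the number 1303 and all cKO libraries the number 2963. What this number stands for is not given in the sources used here, and anything it marks cannot be told apart from genotype. P4M against P28 compares libraries that carry the same number.

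Total counts per clone lay between 25688946 and 38958693 in Fgfr3-WT and between 37606033 and 52857424 in cKO clones, so that depth moved with genotype. Levels of a gene across clones are given as CPM, the count per 1000000 counts of the library total scaled by TMM, and levels of different genes are compared only in the deposited TPM, which are scaled by transcript length. A gene was called when the Benjamini-Hochberg adjusted p of edgeR's quasi-likelihood test, over 17358 genes, was under 0.05. Where a value is given for every clone, the order is that of the running numbers within a group, which have no meaning of their own.

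Trp53, the floxed gene, was measured first. Its level was 55.4, 49.9, 68.2, 50.4 and 51.1 CPM in the 5 Fgfr3-WT clones, 2.47, 2.84, 2.37, 2.48 and 2.18 CPM in the P28 clones and 2.08, 2.37, 1.72 and 2.22 CPM in the P4M clones. No cKO clone came near the Fgfr3-WT clones, as the labels would have it (-4.59 ± 0.12 log2 ± SE for all cKO against Fgfr3-WT, adjusted p = 7.45e-11).

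Markers of the labelled skeletal cells differed among the clones. Pdgfrb lay between 233 and 621 CPM in all 14 clones, whereas Col1a2, the second chain of type I collagen, was at 0.0326, 0.842, 0.485, 0.797 and 4354 CPM in the Fgfr3-WT clones and at 11186 to 20798 CPM in P28 and 7793 to 33256 CPM in P4M clones. Fgfr3-WT and cKO clones did not overlap for Col1a2, which was not called in all cKO (adjusted p = 0.105). Fgfr3-WT clone 5 was thus the only clone of its group with Col1a2 above 1 CPM, and it also held the highest Sp7 of that group, 38.7 CPM. Of the other 4 skeletal stromal markers, Twist1 was called higher in all cKO (0.62 ± 0.20 log2, adjusted p = 0.0192), and Thy1 was called lower in P4M (adjusted p = 0.0338), where the 4 clones held 1 count in all. Thy1 was also lower in P4M against P28 (adjusted p = 0.0486). Prrx1 and Pdgfra were not called in any of the 4 contrasts, but Prrx1 was at 789.9, 562, 674, 61.5 and 4.53 CPM in the P28 clones, so that clones 4 and 5 were apart from clones 1 to 3. Over 6 osteoblast markers, of which Col1a1 was the most abundant, the summed TPM was 53.5, 29.3, 18.7, 86.4 and 449 in Fgfr3-WT, 6277, 4104, 6033, 7138 and 7077 in P28 and 9855, 16693, 3818 and 6540.4 in P4M clones, and 5 of the 6 were called higher in all cKO. For 5 chondrocyte markers, led by Col2a1, the sums were 218, 1671, 2161, 5782 and 486 in Fgfr3-WT, 358, 216, 294, 468 and 61.1 in P28 and 16.9, 14.2, 11.6 and 8.08 in P4M clones, and 4 of the 5 were called lower. Contractile genes of smooth muscle, 5 in number and led by Acta2, summed to 1.13, 83.9, 27.9, 67.1 and 42.3 TPM in Fgfr3-WT, 4782, 3447, 3111, 2716 and 2175 TPM in P28 and 615, 488, 704 and 800.4 TPM in P4M clones, with 4 of 5 called higher and Des called lower. Blood cell markers, led by Cd79a, summed to at most 0.23 TPM in every clone. Endothelial markers, led by Kdr, summed to at most 3.26 TPM, with no count of Cdh5 in any clone. Kdr, the 1 endothelial marker tested, was called higher in all cKO (4.59 ± 1.09, adjusted p = 0.00371), in P28 (adjusted p = 0.019) and in P4M (adjusted p = 0.00224). Reticular and adipocyte markers, 5 in number and led by Cxcl12, summed to 2.34, 28.4, 5.54, 5.64 and 189.5 TPM in Fgfr3-WT, 286 to 414 TPM in P28 and 75.5 to 289 TPM in P4M clones, with Lepr and Ebf3 called higher. Macrophage and osteoclast markers, 5 in number and led by Ctsk, summed to 149.98, 358, 401, 396 and 152 TPM in Fgfr3-WT, 50.5 to 149.7 TPM in P28 and 24.8 to 242 TPM in P4M clones, with Csf1r and Acp5 called higher and Cd68 and Ctsk lower. Genes of all these lists but that of blood cells moved with genotype as pathway members did, and their part in the results below was not tested.

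In all cKO against Fgfr3-WT clones, 16 of the 44 tested members were called higher and 6 lower, beside 23.1% and 25.7% of all tested genes. Higher were 7 of the 8 Smads, Bmp2, Bmp3, Bmp4, Tgfb1, the receptors Tgfbr1, Tgfbr2 and Acvrl1, and the inhibitors Nog and Bambi. Lower were Gdf5, Gdf6, Grem1, Chrdl1, Ltbp3 and Id4. The median log2 fold change was 0.27 over the members and -0.05 over all tested genes. P28 clones alone had 13 members higher and 3 lower, beside 19.2% and 19.7% of all genes, and P4M clones had 15 higher and 7 lower, beside 22.3% and 23.6%. As shares of the tested members, the first counts were 36.4% and 13.6%, given as a description with no test of the list, and the account below follows single members.

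**Figure D1:**
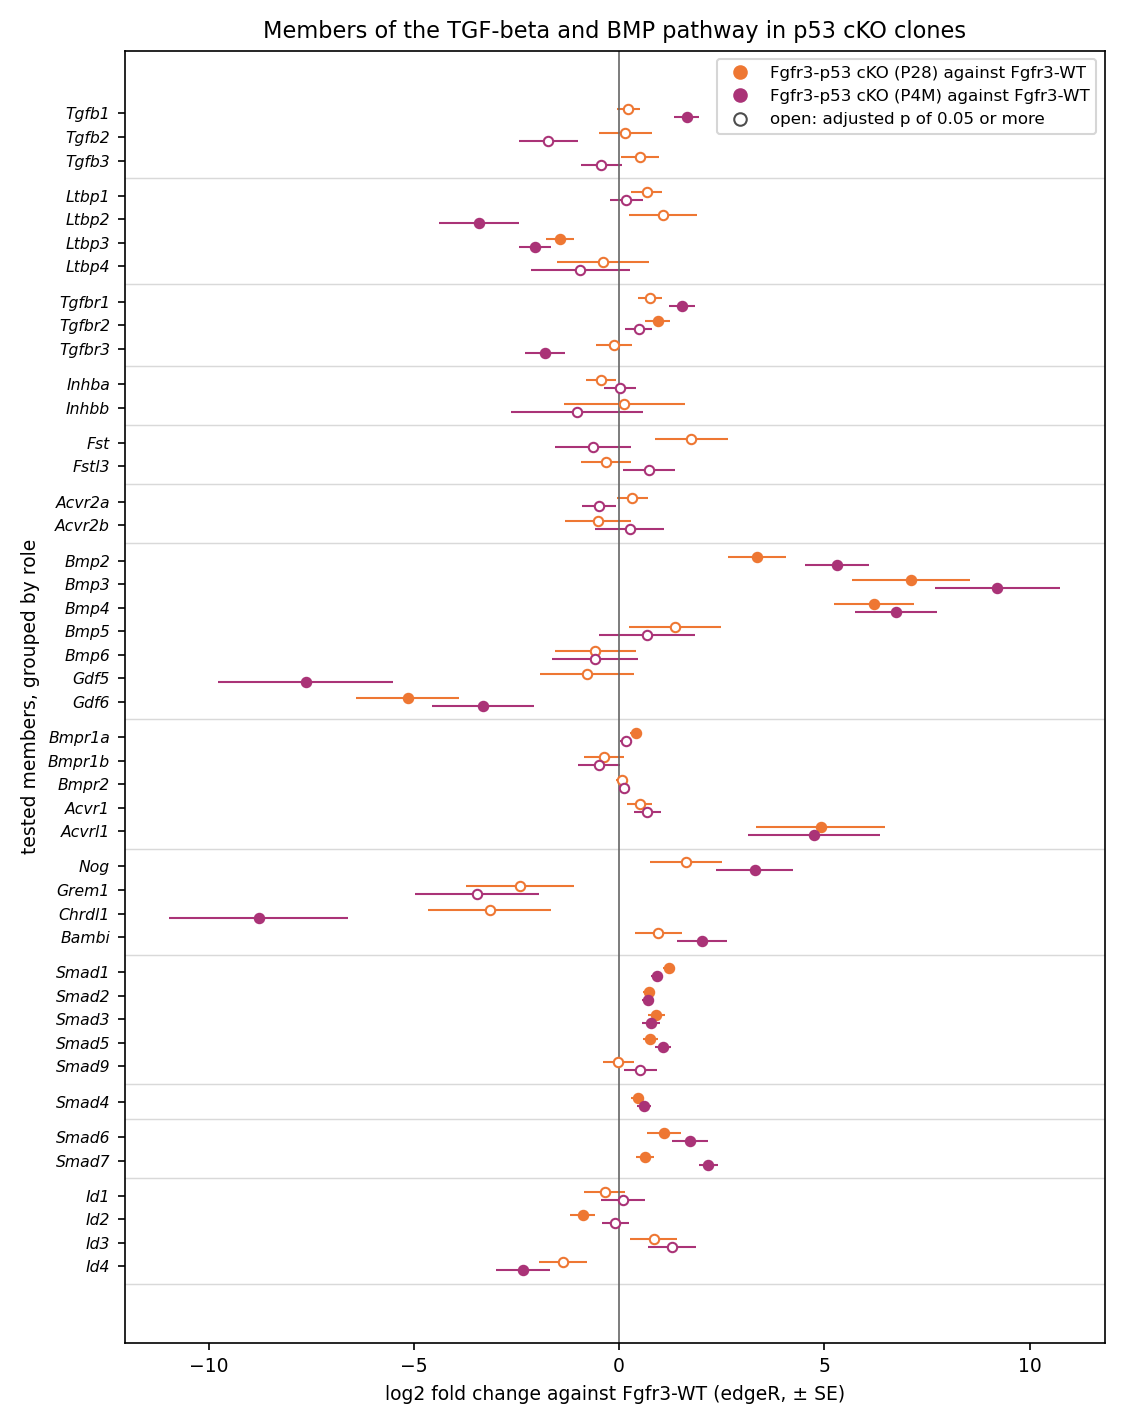
Log2 fold change (x axis, with SE) of each of the 44 tested members against the 5 Fgfr3-WT clones, for the 5 P28 clones (orange) and the 4 P4M clones (purple), with members grouped by role from top to bottom and filled points for adjusted p under 0.05. Bmp2, Bmp3 and Bmp4 lie far to the right, the Smads other than Smad9 lie right of 0 with short bars, and the points of Gdf5 in P4M and of Acvrl1 rest on groups with 0 and 1 counts, so that their size depends on the prior count of the fit.

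A stricter rule asked for a log2 fold change of at least 1 and no overlap between the 5 Fgfr3-WT and the 9 cKO clones. It was met by 4 members that were higher (Bmp2, Bmp3, Bmp4 and Smad1) and by none that was lower, beside 6.66% and 6.08% of all tested genes.

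Bmp2, Bmp3 and Bmp4 rose in the cKO clones, which makes 3 of the 7 tested BMP and GDF ligands, while 2 were lower and Bmp5 and Bmp6 were not called. As shares this was 42.9% higher and 28.6% lower, beside 23.1% and 25.7% of all tested genes, with no test of the list. Bmp4 (ENSMUSG00000021835, GRCm38 chr14:46383520-46390669, minus strand), a ligand of limb and bone formation, was at 0, 0.306, 0.0405, 0.256 and 2.77 CPM in the Fgfr3-WT clones, at 24.5, 88.8, 37.4, 53.2 and 41.3 CPM in the P28 clones and at 57.9, 56.7, 115 and 54.1 CPM in the P4M clones. The lowest cKO clone was well above the highest Fgfr3-WT clone, which was clone 5. Group means were 0.675 ± 1.18 (SD, n = 5), 49.1 ± 24.5 (SD, n = 5) and 70.8 ± 29.3 (SD, n = 4) CPM, which made 6.48 ± 0.96 log2 (± SE) for all cKO against Fgfr3-WT (adjusted p = 0.000159). Fgfr3-WT clone 5 made up most of its group's mean, and without it the difference was 8.56 log2. A difference between P4M and P28 was not called (0.53 ± 0.79, adjusted p = 0.718). Exons of Bmp4 overlap Gm15217 on the other strand, and the sources used here do not say whether counting used the strand.

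Bmp2 (GRCm38 chr2:133552159-133562885, plus strand), an inducer of osteoblast differentiation, rose in both cKO groups. It was at 4.92, 0.957, 0.890, 0.683 and 4.63 CPM in the Fgfr3-WT clones, at 7.31, 12.8, 9.04, 37.97 and 56.6 CPM in the P28 clones and at 77.6, 103, 93.6 and 108 CPM in the P4M clones, so that the 3 groups did not overlap. The log2 fold change was 3.36 ± 0.71 in P28 (adjusted p = 0.00273) and 5.30 ± 0.79 in P4M (adjusted p = 0.000228). The step from P28 to P4M was not called (1.95 ± 0.69, adjusted p = 0.096), but it was called by DESeq2 (0.0322), in a fit of these groups alone (0.0487), without P28 clone 5 (0.0453) and without Fgfr3-WT clones 1 and 5 together (0.034). P28 clones 4 and 5 held the highest Bmp2 of their group and were also apart from P28 clones 1 to 3 in Sp7, at 3.38, 9.78, 5.47, 293 and 289.5 CPM over the 5 clones. Without them the log2 fold change of Bmp2 in P28 was 1.99 (adjusted p = 0.0261), and the step from P28 to P4M was 3.33 log2 (adjusted p = 0.0171).

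Bmp3 (GRCm38 chr5:98854415-98884396, plus strand), which is known to oppose osteogenic BMPs, was nearly absent from the Fgfr3-WT clones. They held 0.0652, 0.153, 0, 0 and 0 CPM, the P28 clones 1.29, 18.03, 11.1, 1.07 and 0.179 CPM and the P4M clones 26.2, 61.9, 7.15 and 13.8 CPM. Its SD within P28 exceeded its mean, 6.32 ± 7.91 (SD, n = 5), against 27.3 ± 24.4 (SD, n = 4) in P4M. Fgfr3-WT and cKO clones did not overlap, although P28 clone 5, with 7 counts, was just above Fgfr3-WT clone 2, with 4, and the P28 and P4M clones overlapped. All cKO stood 8.16 ± 1.45 log2 above Fgfr3-WT (adjusted p = 0.00054), a size that rests on few counts, since Fgfr3-WT clones 3 to 5 had none.

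The growth and differentiation factors Gdf5 and Gdf6 were lower. Gdf5, a joint-forming factor, had counts in 4 of 5 Fgfr3-WT clones (0.782, 1.65, 0.364, 0 and 0.317 CPM) and in 4 of 5 P28 clones (1.18, 0.0478, 0.239, 0.302 and 0 CPM), and no count in any P4M clone. With a floor of 3 counts over the P4M group, its level there was at least 39.6-fold lower than the Fgfr3-WT mean and at least 22.6-fold lower than the P28 mean. It was called lower in P4M (adjusted p = 0.0141) and in all cKO (adjusted p = 0.023), but not in P28 (adjusted p = 0.619). P4M against P28 was not called (adjusted p = 0.0775), except by DESeq2 (0.00353). The call in all cKO was lost without Fgfr3-WT clone 2 (adjusted p = 0.0692), which held the most, without Fgfr3-WT clones 1 and 5 together (0.0533), and when the 9 cKO clones were fitted as 1 pooled group (-1.68 log2, adjusted p = 0.283). Gdf6, of the same subfamily, was at 48.3, 5.82, 0.445, 1.45 and 0.396 CPM in the Fgfr3-WT clones, at 0.473, 0.335, 0.298, 0.161 and 0.307 CPM in P28 and at 0.600, 1.80, 1.64 and 0.489 CPM in P4M. Its fall (log2 fold change -4.23 ± 0.95, adjusted p = 0.00269) rests on Fgfr3-WT clones 1 and 2, since the other 3 overlapped the cKO clones, and in P4M alone (adjusted p = 0.0436) it was lost in 11 of 14 leave-outs of a clone. In P4M the log2 fold change was -3.32, and -0.86 without Fgfr3-WT clone 1 (adjusted p = 0.377). In all cKO it ranged from -4.55 to -1.79 over the alternatives. Gdf5, Gdf6, Bmp7 and Gdf10 lie outside the rule for values in every clone, and their choice followed a look at the values.

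Single Fgfr3-WT clones expressed further ligands. Bmp7, a ligand used in bone repair, was at 19.2, 0.0765, 18.04, 0 and 0 CPM in the Fgfr3-WT clones and at no more than 1.10 CPM in any cKO clone. Gdf10, also called BMP3b, was at 0, 6.08, 2.59, 20.7 and 0 CPM in the Fgfr3-WT clones and at no more than 0.0512 CPM in any cKO clone. Clones 1 and 3 thus held Bmp7, and clones 2, 3 and 4 held Gdf10. Both were left out by the filter, and with no filter both were called lower in all cKO (adjusted p = 0.0245 and 0.00122). Bmp5 ranged from 0.0765 to 8.54 CPM in Fgfr3-WT and from 0.717 to 23.4 CPM in cKO clones, and Bmp6 from 0.256 to 3.72 and from 0.113 to 3.32 CPM. Neither was called in any of the 4 contrasts, but without P4M clone 3 Bmp6 was lower in all cKO (adjusted p = 0.0135) and P4M (0.00808).

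**Figure D2:**
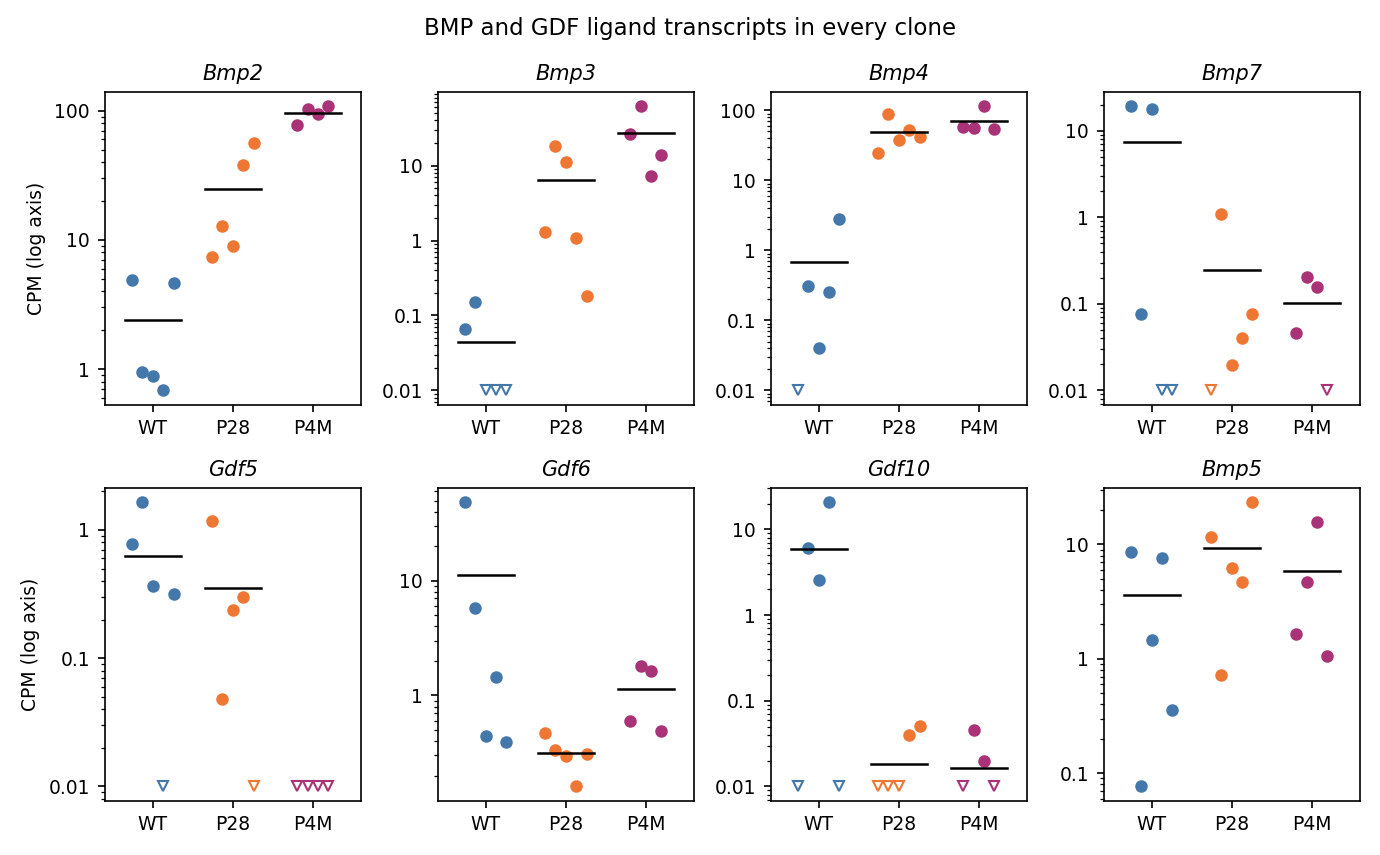
CPM on log axes of 8 of the 9 BMP and GDF ligands in each clone (points), with group means (lines) and open triangles at the bottom for clones with no count. Bmp2, Bmp3 and Bmp4 do not overlap between Fgfr3-WT and cKO clones, Gdf5 has no count in P4M, and Bmp7 and Gdf10 are high in 2 and 3 Fgfr3-WT clones only.

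BMP ligands are held in check by secreted antagonists that bind them, of which Nog, Grem1 and Chrdl1 were among the members. Grem1, the most abundant member of this role, was at 6.06, 1672, 431, 1206 and 19.4 CPM in the Fgfr3-WT clones, at 55.7, 229, 308, 15.3 and 20.2 CPM in P28 and at 35.2, 6.53, 151 and 49.1 CPM in P4M. Fgfr3-WT clones 2, 3 and 4 stood above all cKO clones, clone 5 stood among them and clone 1 was below them. Grem1 was called lower in all cKO (-2.94 ± 1.09, adjusted p = 0.0389) and in neither cKO group alone. In all cKO, 8 of 14 leave-outs of a clone ended the call, the highest adjusted p being 0.122 without Fgfr3-WT clone 2, as did using no filter (0.0792) and leaving out P28 clones 4 and 5 together (0.0821). In P4M alone Grem1 was called lower by DESeq2 (adjusted p = 0.0168), without Fgfr3-WT clone 1 (0.035) and without clone 5 (0.0477). Without both of these clones it was called lower in P28 (0.0349) and in P4M (0.0144).

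Chrdl1, chordin-like 1, split the Fgfr3-WT clones too. It was at 0, 447, 0.607, 546 and 753 CPM in them, at 63.2, 18.6, 54.7, 50.4 and 9.45 CPM in P28 and at 0.738, 0.114, 0.336 and 1.94 CPM in P4M. Every P4M clone was below every P28 clone, and Fgfr3-WT clones 1 and 3 were as low as P4M. The log2 fold change was -8.79 ± 2.18 in P4M (adjusted p = 0.0055) and -3.15 ± 1.502 in P28 (adjusted p = 0.113), and P4M against P28 gave -5.64 ± 1.90 (adjusted p = 0.0842). Without Fgfr3-WT clone 1 Chrdl1 was called lower in P28 too (-3.50, adjusted p = 0.0305). The difference between P4M and P28 was called by DESeq2 (0.00446), with only the groups compared (0.00754), without Fgfr3-WT clone 1 (0.0267) and without clones 1 and 5 together (0.0278). Nog, noggin, was called higher in all cKO and in P4M. It went from 0.554, 3.21, 0.485, 0.740 and 0 CPM in Fgfr3-WT to 1.72, 2.32, 1.25, 7.84 and 2.41 CPM in P28 and 5.49, 5.23, 20.3 and 8.31 CPM in P4M (all cKO 2.47 ± 0.84, adjusted p = 0.0272). Bambi, a membrane pseudoreceptor without kinase domain, rose by 1.48 ± 0.53 (log2, adjusted p = 0.0345), with 9.42 to 37.2 CPM in Fgfr3-WT, 14.3 to 73.8 CPM in P28 and 19.8 to 153 CPM in P4M. The calls of Nog and Bambi in all cKO ended in 4 and 7 of the 14 leave-outs, with adjusted p of at most 0.0611 and 0.0798, both without Fgfr3-WT clone 3. Both calls also ended without P28 clones 4 and 5 together (adjusted p = 0.0682 and 0.0976), and that of Nog without Fgfr3-WT clones 1 and 5 together (0.0626). By group, Nog was called in P4M (3.30 ± 0.95, adjusted p = 0.0124) and not in P28 (1.64 ± 0.88, adjusted p = 0.155), except without Fgfr3-WT clone 2 (0.0241). Bambi was called in P4M (2.01 ± 0.61, adjusted p = 0.0163), lost without P4M clone 2 (0.076), and not in P28 (0.95 ± 0.57, adjusted p = 0.205). Chrdl1 and Nog are likewise given for every clone because of their values.

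Set side by side per transcript length, summed BMP and GDF ligands were higher in every cKO clone than in any Fgfr3-WT clone. The sum of Nog, Grem1 and Chrdl1 varied widely among the Fgfr3-WT clones. The summed TPM of the 9 BMP and GDF ligands was 35.3, 6.30, 12.3, 8.38 and 11.2 in Fgfr3-WT, 53.3, 156, 90.2, 104 and 116 in P28 and 123, 136, 164 and 108 in P4M clones. The summed TPM of Nog, Grem1 and Chrdl1 was 2.74, 758, 152, 557 and 341 in Fgfr3-WT, 55.04, 102, 159, 41.05 and 17.0 in P28 and 18.8, 7.39, 75.05 and 27.3 in P4M clones. Antagonist transcripts exceeded ligand transcripts in Fgfr3-WT clones 2 to 5 and in P28 clones 1 and 3, and ligand transcripts exceeded antagonists in Fgfr3-WT clone 1, in P28 clones 2, 4 and 5 and in all P4M clones. Bmp4 was the most abundant ligand in all 9 cKO clones and in Fgfr3-WT clone 5, whereas it was Gdf6 in Fgfr3-WT clones 1 and 2, Bmp7 in clone 3 and Gdf10 in clone 4. These sums are a description and were not tested. Bmp3 is counted among the ligands, and Fst and the other secreted antagonists of the pathway counted further below are left out. Which sum was larger therefore holds for these genes only. In bulk libraries, fewer expressing cells and less RNA per cell cannot be told apart.

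**Figure D3:**
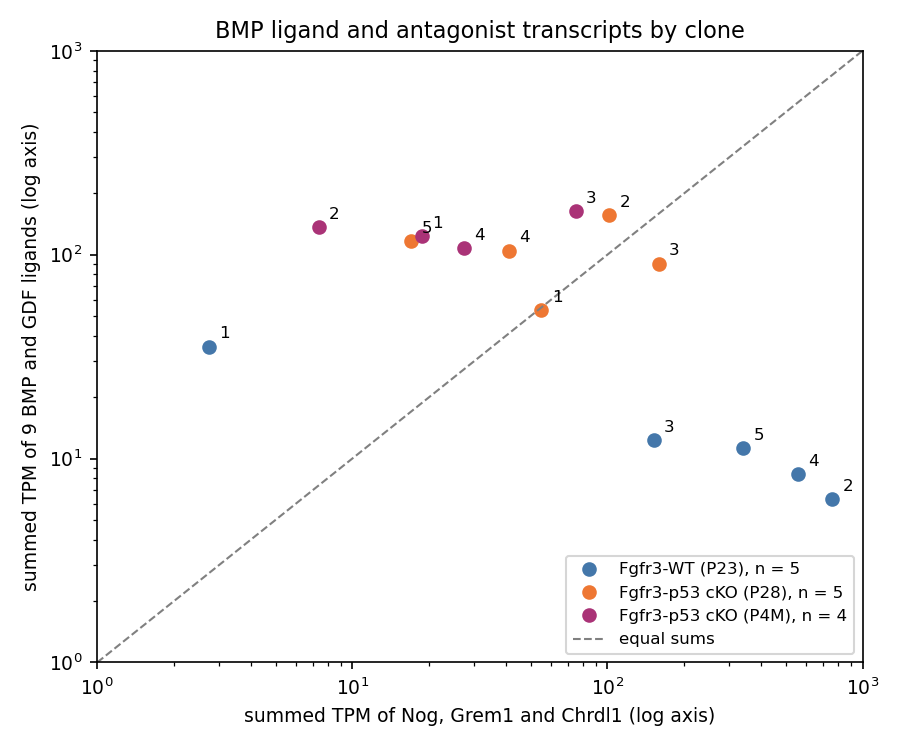
Summed TPM of 9 BMP and GDF ligands (y axis) against summed TPM of the antagonists Nog, Grem1 and Chrdl1 (x axis), on log axes, with 1 point per clone, numbered within its group, and a dashed line where both sums are equal. Fgfr3-WT clones 2 to 5 lie at the lower right, the 9 cKO clones lie between 53.3 and 164 on the y axis, and Fgfr3-WT clone 1 lies apart at 2.74 on the x axis.

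Of the 5 BMP receptors only Acvrl1 was called in all cKO. Acvr1 (ALK2), a type I receptor and the most abundant of this role, was at 101, 30.2, 31.7, 31.4 and 60.6 CPM in the Fgfr3-WT clones, at 96.8, 63.95, 65.5, 69.9 and 64.8 CPM in P28 and at 82.8, 79.5, 91.5 and 75.2 CPM in P4M. All cKO clones were above Fgfr3-WT clones 2 to 5 and none was above clone 1, and Acvr1 was not called (all cKO 0.59 ± 0.27, adjusted p = 0.0896). Clone 1 decided this, since without it Acvr1 was called higher (0.99 log2, adjusted p = 0.00126). The type II receptor Bmpr2 had the smallest difference of the 5, 0.09 ± 0.11 (adjusted p = 0.508), with 85.96 to 109.7 CPM in Fgfr3-WT and 86.0 to 124 CPM in cKO clones. Bmpr1a was called higher in P28 by 0.42 ± 0.14 (log2, adjusted p = 0.0318), a call lost in 6 of 14 leave-outs, and in all cKO by DESeq2 (adjusted p = 0.0494) and without Fgfr3-WT clone 1 (0.0186). Its difference between P4M and P28 was not called (adjusted p = 0.33). Bmpr1b ranged from 3.99 to 18.9 CPM over all clones and was not called. Acvrl1 (ALK1), mainly a receptor of endothelial cells, was called higher in all cKO (adjusted p = 0.0176) on 1 count over the 5 Fgfr3-WT clones against 74 in P28 and 55 in P4M, with no cKO clone above 0.775 CPM. Without Fgfr3-WT clones 1 and 5 together that call was lost (adjusted p = 0.0679), and with only the groups compared, with at least 10 counts in every clone or without P28 clone 3 or 4 Acvrl1 did not pass the filter. In P28 and in P4M alone it was called as well (adjusted p = 0.0247 and 0.0282), and leaving out any single Fgfr3-WT clone ended both calls. Kdr, an endothelial marker, was higher in the same contrasts, and its part was not tested.

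On the TGF-beta side, Tgfb1 was higher in P4M clones. Tgfb1 (ENSMUSG00000002603, GRCm38 chr7:25687002-25705077, plus strand) had the highest TPM of the 3 ligands over all clones, though only through P4M, since its group mean was the lowest of the 3 in Fgfr3-WT (28.5 TPM) and P28 (38.8 TPM). It was at 44.96, 60.9, 34.2, 24.9 and 29.4 CPM in Fgfr3-WT, at 30.7, 42.5, 37.8, 54.8 and 60.99 CPM in P28 and at 127, 171, 71.8 and 117 CPM in P4M clones. All 4 P4M clones were above all 10 others, while P28 and Fgfr3-WT clones overlapped. The log2 fold change was 1.65 ± 0.30 in P4M and 0.22 ± 0.28 in P28, and P4M against P28 gave 1.42 ± 0.30 (adjusted p = 0.0157), lost without P4M clone 2 (adjusted p = 0.0514). For all cKO it was 0.93 ± 0.26 (adjusted p = 0.00889), a call lost when the 9 cKO clones were fitted as 1 pooled group (adjusted p = 0.0625). Genes of chromosome 7, where Tgfb1 lies, were shifted the other way in P4M, with a median of -0.66, -0.62, -0.67 and -0.68 log2 against the Fgfr3-WT mean. That shift was -0.24, -0.10, -0.20, -0.61 and -0.61 in the P28 clones, and its part was not tested. Tgfb2 (11.7 to 255 CPM in Fgfr3-WT, 64.9 to 173 in P28, 27.6 to 33.3 in P4M) and Tgfb3 (25.7 to 173 CPM over all clones) were not called in any contrast. Each P4M clone had less Tgfb2 than each P28 clone, and this difference was called by DESeq2 (adjusted p = 0.0357), with only the groups compared (0.0049) and without Fgfr3-WT clones 1 and 5 together (0.046). Against Fgfr3-WT, Tgfb2 was called lower in P4M by DESeq2 (adjusted p = 0.0222) and without Fgfr3-WT clone 1 (0.0262) or 4 (0.0167).

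Among the latent TGF-beta binding proteins are members that tether TGF-beta to the matrix, and of the 4 genes Ltbp3 was lower in all cKO and Ltbp2 in P4M. Ltbp3, of highest mean TPM over all clones but below Ltbp1 in both cKO groups, was at 931, 1127, 407, 1149 and 759.8 CPM in Fgfr3-WT, at 478, 305, 375, 261 and 198 CPM in P28 and at 264, 206, 93.6 and 279 CPM in P4M. It overlapped only through Fgfr3-WT clone 3, and its log2 fold change in all cKO was -1.75 ± 0.29 (adjusted p = 0.000349). The lowest value, in P4M clone 3, stood beside a shift of -0.62 log2 over the genes of its chromosome 19 in that clone. Ltbp2 (GRCm38 chr12:84783212-84876532, minus strand) was at 328, 269, 50.04, 443 and 311 CPM in Fgfr3-WT, at 944, 638, 1087, 211 and 49.5 CPM in P28 and at 74.7, 10.04, 13.3 and 6.75 CPM in P4M. P28 clones 1 to 3 were the 3 highest of all, P28 clone 5 was as low as Fgfr3-WT clone 3, and the P4M clones were lowest except clone 1. Without P4M clone 1, Ltbp2 was called lower in all cKO too (-1.87 log2, adjusted p = 0.0273). P4M against P28 gave -4.48 ± 1.04 (adjusted p = 0.0234), and this call was lost without P28 clone 1 or 3 and without P4M clone 2, 3 or 4, with adjusted p of 0.0517 to 0.0683. Ltbp1 (190 to 790 CPM) and Ltbp4 (0.594 to 216 CPM, highest in Fgfr3-WT clone 1) were not called. Without Fgfr3-WT clone 1, Ltbp4 was called higher in all cKO (adjusted p = 0.0471) and P28 (0.0451), as was Ltbp1 in P28 without Fgfr3-WT clone 2 (0.0496).

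Among TGF-beta receptors, Tgfbr2, the type II receptor and the most abundant, was at 84.6, 119, 183, 90.99 and 228 CPM in Fgfr3-WT, at 199, 255, 342, 329 and 228 CPM in P28 and at 159, 164, 313 and 147 CPM in P4M. The groups overlapped, and its call in all cKO (0.71 ± 0.27, adjusted p = 0.0473) was lost in 10 of 14 leave-outs of a clone, the highest adjusted p being 0.118 without Fgfr3-WT clone 1. By group it was called in P28 (0.94 ± 0.31, adjusted p = 0.0265), lost in 5 of 14 leave-outs, and not in P4M (0.47 ± 0.32, adjusted p = 0.243). Tgfbr1, the type I kinase, rose in all cKO by 1.14 ± 0.28 (log2, adjusted p = 0.0042), with 11.04 to 40.8 CPM in Fgfr3-WT, 29.7 to 49.3 in P28 and 58.7 to 87.8 in P4M. It was called in P4M (1.53 ± 0.32, adjusted p = 0.00185) but not in P28 (0.75 ± 0.30, adjusted p = 0.063). Under alternatives it was called in P28 by DESeq2 (0.0432), with no scaling (0.0368), with at least 10 counts in every clone (0.046) and without Fgfr3-WT clone 3 (0.00896). P4M against P28 was called with only the groups compared (0.0293). Chromosome 4, which holds Tgfbr1, had median shifts of -0.40, -0.39, 0.37, 0.14 and 0.28 log2 in the Fgfr3-WT clones and of 0.27 to 0.56 in the cKO clones, and its part in this difference was not tested. Tgfbr3 (betaglycan), a coreceptor, was lower in P4M (-1.81 ± 0.49, adjusted p = 0.0095), where each clone was below each P28 clone. In all cKO it was not called (adjusted p = 0.0506), but was by DESeq2 (0.0365), with at least 10 counts in every clone (0.0489) and without Fgfr3-WT clone 3 (0.00933) or P4M clone 3 (0.0335). Without Fgfr3-WT clones 1 and 5 together it was not called in P4M (-1.12, adjusted p = 0.0562). P4M against P28 missed the threshold (adjusted p = 0.0545), which it passed by DESeq2 (0.00743) and without Fgfr3-WT clone 1 (0.0253) or 3 (0.0272). It also passed with at least 10 counts in every clone (0.0455), with only the groups compared (0.0159) and without Fgfr3-WT clones 1 and 5 together (0.0222).

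No activin subunit, activin inhibitor or activin type II receptor among the members was called in any of the 4 contrasts. Smad2 and Smad3, which activin receptors share with those of TGF-beta, are given below. Under alternatives, Inhbb was called higher without Fgfr3-WT clone 2 in all cKO (adjusted p = 0.0177), P28 (0.0157) and P4M (0.0417), and so was Fst in P28 (0.0220). Fst was lower in P4M against P28 by DESeq2 (adjusted p = 0.0426), and Fstl3 was higher in P4M without Fgfr3-WT clones 1 and 5 together (0.0392). Inhba, the activin A subunit, was at 61.996, 95.5, 128, 78.02 and 262 CPM in Fgfr3-WT, at 76.1, 64.6, 62.97, 100.4 and 155 CPM in P28 and at 104, 108, 169 and 124 CPM in P4M, with a log2 fold change of -0.22 ± 0.32 in all cKO (adjusted p = 0.608). Its inhibitor Fstl3 was at 22.6, 17.6, 1.78, 13.3 and 57.1 CPM, 10.7, 13.4, 11.9, 34.9 and 19.2 CPM and 38.4, 27.8, 40.01 and 41.8 CPM in the same order of groups (0.20 ± 0.54, adjusted p = 0.779). The type II receptor Acvr2a was at 43.4, 15.1, 13.5, 14.97 and 18.5 CPM, 47.2, 24.6, 32.2, 13.96 and 13.9 CPM and 14.5, 15.2, 17.7 and 12.4 CPM (-0.09 ± 0.34, adjusted p = 0.849). All 3 overlapped between the groups, with Fgfr3-WT clone 5 highest for Inhba and Fstl3. Inhbb (0 to 33.2 CPM), follistatin Fst (0.283 to 20.99 CPM) and Acvr2b (0 to 2.44 CPM) were low and varied widely within groups.

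Most Smads, which carry the signal to the nucleus, were higher in cKO clones. Of the 5 receptor-regulated Smads 4 were called higher in all cKO and in each cKO group alone, as were the common Smad4 and both inhibitory Smads. The share of all tested genes called higher was 23.1% in all cKO, 19.2% in P28 and 22.3% in P4M. Smad1 (ENSMUSG00000031681, GRCm38 chr8:79338395-79399518, minus strand), a BMP Smad, was at 15.8, 23.2, 19.8, 17.7 and 13.7 CPM in Fgfr3-WT, at 43.6, 43.3, 44.3, 41.7 and 35.1 CPM in P28 and at 29.4, 33.8, 36.2 and 36.9 CPM in P4M. All cKO clones were above all Fgfr3-WT clones, while P28 and P4M clones overlapped. Group means were 18.1 ± 3.65 (SD, n = 5), 41.6 ± 3.74 (SD, n = 5) and 34.1 ± 3.41 (SD, n = 4) CPM, and all cKO stood 1.06 ± 0.13 log2 (± SE) above Fgfr3-WT (adjusted p = 4.7e-05). Smad2, a TGF-beta Smad and the most abundant of its role, was at 65.4, 42.6, 48.3, 49.3 and 46.8 CPM, 79.6, 70.6, 74.3, 96.1 and 94.5 CPM and 77.5, 75.01, 96.4 and 82.1 CPM (0.72 ± 0.13, adjusted p = 0.000506). Fgfr3-WT and cKO clones did not overlap for Smad2 either, nor for Smad5 (0.92 ± 0.16, adjusted p = 0.000583), though both differed by less than 1 log2. Smad3 rose by 0.84 ± 0.19 (adjusted p = 0.00256) and Smad4 by 0.53 ± 0.14 (adjusted p = 0.00684). Smad9 was not called (0.25 ± 0.33, adjusted p = 0.563). In all cKO, Smad1, Smad2, Smad3, Smad4 and Smad5 were called in each of the 14 leave-outs of a clone.

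Inhibitory Smads are themselves induced by the pathway and block it in return. Smad7 was at 33.8, 19.97, 25.9, 15.6 and 28.1 CPM in Fgfr3-WT, at 33.8, 33.9, 30.7, 41.98 and 51.2 CPM in P28 and at 102, 93.7, 103 and 146 CPM in P4M. Fgfr3-WT clone 1 overlapped the P28 clones, and all P4M clones were above both groups. The log2 fold change was 0.63 ± 0.22 in P28 (adjusted p = 0.0318) and 2.17 ± 0.23 in P4M (adjusted p = 2.76e-05), and the difference between P4M and P28, 1.53 ± 0.23 (adjusted p = 0.0043), was called in all 14 leave-outs of a clone. Smad6, the inhibitor of BMP Smads, was at 23.4, 33.9, 38.3, 20.3 and 46.5 CPM in Fgfr3-WT, at 52.6, 39.97, 37.3, 109 and 109.9 CPM in P28 and at 96.8, 158, 38.3 and 139 CPM in P4M (1.42 ± 0.39, adjusted p = 0.00827). P28 clones 1, 4 and 5 and P4M clones 1, 2 and 4 were above all Fgfr3-WT clones, and the other 3 cKO clones were among them. Its call in P28 alone (adjusted p = 0.0497) was lost in 10 of 14 leave-outs, as was that of Smad7 in 4 and that of Smad4 in 8. Without P28 clones 4 and 5 together, Smad6 and Smad7 were not called in P28 (adjusted p = 0.504 and 0.233).

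**Figure D4:**
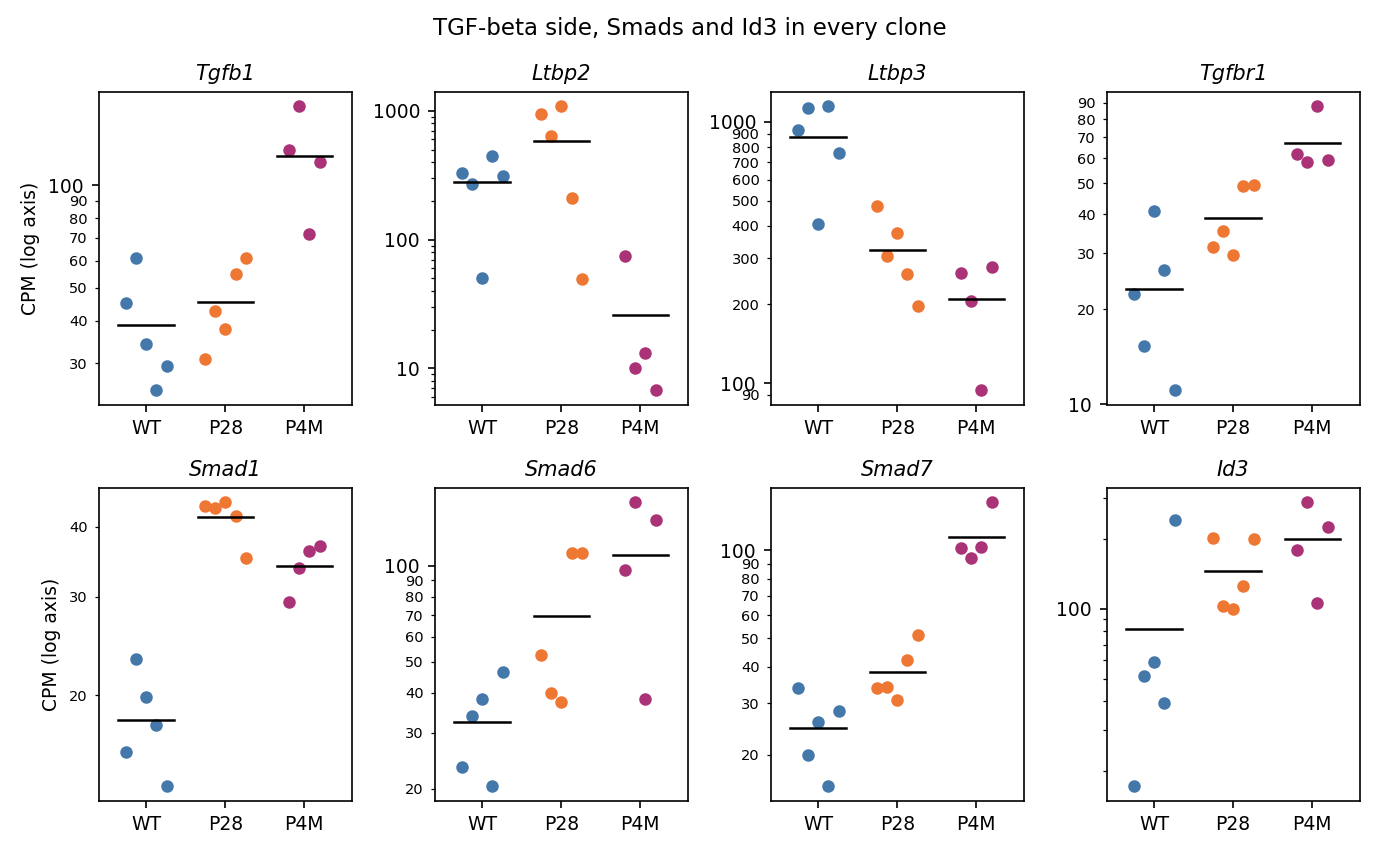
CPM on log axes, with a scale of its own for each gene, of Tgfb1, Ltbp2, Ltbp3, Tgfbr1, Smad1, Smad6, Smad7 and Id3 in each clone (points), with group means (lines). Tgfb1 and Smad7 separate P4M from both other groups, Smad1 separates all cKO from Fgfr3-WT clones, and Id3 overlaps through Fgfr3-WT clone 5 at 242 CPM.

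Id genes encode inhibitors of helix-loop-helix factors and are direct targets of BMP Smads. Id3, the most abundant, was at 17.1, 51.4, 58.7, 39.1 and 242 CPM in Fgfr3-WT, at 202, 102, 99.4, 126 and 201 CPM in P28 and at 179, 288, 105 and 225 CPM in P4M. All cKO clones were above Fgfr3-WT clones 1 to 4 while clone 5 was below P4M clone 2 alone, and Id3 was not called (1.06 ± 0.52, adjusted p = 0.107). Without clone 5 it was called higher (2.03 log2, adjusted p = 0.000979). Id3 lies on chromosome 4, as does Tgfbr1, and the part of the shifts given there for that chromosome was not tested. Id1 (-0.13 ± 0.45, adjusted p = 0.8287) was not called in any contrast, and Id2 was called lower in P28 (-0.89 ± 0.32, adjusted p = 0.0383), a call lost in 7 of 14 leave-outs. It was also lost with no scaling (0.0545), no filter (0.0579) and only the groups compared (0.0588). The same held without Fgfr3-WT clones 1 and 5 (0.0824) or P28 clones 4 and 5 (0.102). Without Fgfr3-WT clone 3, Id2 was called lower in all cKO (adjusted p = 0.029). Id4 was lower in all cKO (-1.85 ± 0.50, adjusted p = 0.00781) with 1.497 to 10.7 CPM in Fgfr3-WT and 0.861 to 7.25 CPM in cKO clones. That call was lost without Fgfr3-WT clones 1 and 5 together (-1.52, adjusted p = 0.0550). Id4 was called in P4M (-2.34 ± 0.66, adjusted p = 0.0112) but not in P28 (-1.37 ± 0.59, adjusted p = 0.0811), except by DESeq2 (0.0418) and without Fgfr3-WT clone 3 (0.0285) or P28 clone 1 (0.0127). In all, 1 of 4 Id genes was called lower in all cKO and none higher, which is 25.0% beside the 25.7% of all tested genes called lower.

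Promoters from RefSeq (GRCm38.p6, 250 bases before to 50 after the start) were matched by symbol to 30 of the 46 members. Those of Bmp4 and Smad1 are shown because both genes separated cKO from Fgfr3-WT clones, those of Smad6 and Id3 because both genes are known targets of BMP Smads. They lie at chr14:46390620-46390919, chr8:79399379-79399678 and chr9:64022010-64022309 on the minus strand and at chr4:136143572-136143871 on the plus strand, and are written 5′ to 3′ along the gene. Capitals mark matches to 3 Smad motifs, searched on both strands: the palindrome GTCTAGAC, the element CAGAC and the GC-rich GGCGCC, none of which contains another.
Bmp4: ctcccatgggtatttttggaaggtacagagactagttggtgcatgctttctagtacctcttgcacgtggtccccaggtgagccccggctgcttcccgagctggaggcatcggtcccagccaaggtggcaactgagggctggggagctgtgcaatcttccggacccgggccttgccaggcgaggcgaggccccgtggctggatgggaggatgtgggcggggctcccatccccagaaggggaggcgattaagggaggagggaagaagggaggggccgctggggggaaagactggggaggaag
Smad1: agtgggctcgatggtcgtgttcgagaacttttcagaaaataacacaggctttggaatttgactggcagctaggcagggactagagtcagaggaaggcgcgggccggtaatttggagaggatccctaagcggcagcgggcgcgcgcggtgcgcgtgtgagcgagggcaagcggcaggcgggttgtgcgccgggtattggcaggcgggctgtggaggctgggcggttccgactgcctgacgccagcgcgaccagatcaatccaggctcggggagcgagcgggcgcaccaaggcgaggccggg
Smad6: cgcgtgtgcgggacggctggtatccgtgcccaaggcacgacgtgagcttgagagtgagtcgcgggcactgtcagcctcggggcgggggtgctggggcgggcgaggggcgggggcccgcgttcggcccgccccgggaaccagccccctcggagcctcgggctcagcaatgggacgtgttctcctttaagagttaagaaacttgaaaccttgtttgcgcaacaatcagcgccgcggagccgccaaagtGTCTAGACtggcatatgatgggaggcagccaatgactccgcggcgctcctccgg
Id3: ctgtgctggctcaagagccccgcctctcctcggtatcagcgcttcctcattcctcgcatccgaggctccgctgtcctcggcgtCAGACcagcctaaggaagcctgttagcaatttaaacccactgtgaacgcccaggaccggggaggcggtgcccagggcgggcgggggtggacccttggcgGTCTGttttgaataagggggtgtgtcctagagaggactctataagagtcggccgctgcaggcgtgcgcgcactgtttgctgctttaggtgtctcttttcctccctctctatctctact

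For each of the 30 members with a promoter entry, only the first entry was searched. Among these, Smad6 alone held the palindrome, which lay across the annotated start with 4 bases on either side. It occurs in 0.213% of all 32851 promoters of the table, which belong to 27025 symbols, so that a gene can be counted more than once there. Id3 held 2 matches to CAGAC, a motif present in 49.6% of all promoters and in 14 of the 30 members. GGCGCC occurred in 11.9% of all promoters and in 9 of the 30, among them Id2, Id4, Smad5 and Tgfbr1, and in none of the 4 shown. Those letters are a description of the windows and say nothing of binding.

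A further 85 genes of the pathway were counted by list, and 66 of them were tested. Of these 24 were called higher and 15 lower in all cKO, or 36.4% and 22.7% beside 23.1% and 25.7% of all tested genes, with a median log2 fold change of 0.28 beside -0.05. Regulators inside the cell, such as Smurf1 and Ski, were 9 higher and 0 lower of 15. Other ligands were 3 higher and 1 lower of 10 tested, and other receptors and coreceptors 1 higher (Amhr2) and 4 lower (Acvr1b, Rgma, Rgmb and Neo1) of 6. Other secreted antagonists and binding proteins were 1 higher and 4 lower of 9 tested, and proteins of latency and activation 1 higher and 4 lower of 9. Genes known to be induced by TGF-beta were 5 higher and 2 lower of 9 in all cKO, 7 higher and 1 lower in P28 (77.8% and 11.1% beside 19.2% and 19.7% of all tested genes) and 4 higher and 2 lower in P4M. Genes known to be induced by BMP were 4 higher and 0 lower of 8, of which 1 (Runx2) was called in P28 and the same 4 (Dlx3, Dlx5, Runx2 and Sp7) in P4M. Of these, Acta2 is also among the smooth muscle markers and Runx2 and Sp7 among the osteoblast markers, so that those lists are not separate.

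By the rule for this list, the highest without overlap between Fgfr3-WT and cKO clones were Bmp8a, Fbn2 and Acta2. Bmp8a, a BMP whose near-identical copy Bmp8b can share reads with it, was at no more than 0.0569 CPM in Fgfr3-WT, at 0.237, 0.167, 0.179, 9.53 and 7.94 CPM in P28 and at 11.7, 19.003, 3.48 and 21.4 CPM in P4M (7.84 ± 1.49, adjusted p = 0.000873). Fbn2, fibrillin-2 of microfibrils, rose by 5.35 ± 0.91 (adjusted p = 0.000389) and smooth muscle actin Acta2 by 4.05 ± 0.90 (adjusted p = 0.00245). The lowest were Inha, the inhibin alpha subunit (-3.02 ± 0.42, adjusted p = 9.24e-05), Crim1, a BMP-binding membrane protein (-1.31 ± 0.17, adjusted p = 5.96e-05), and Furin, a protease that matures the precursors (-0.82 ± 0.15, adjusted p = 0.000644). Ccn2, a TGF-beta target and outside this rule, was at 124, 3695, 4537, 8551 and 2436 CPM in Fgfr3-WT and at 69.3 to 575 CPM in cKO clones (-4.33 ± 0.68, adjusted p = 0.000238), and was named after its values were seen.

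Between the cKO groups, whose libraries carry the same number, 2 members (Tgfb1 and Smad7) were higher and 1 (Ltbp2) was lower in P4M, beside 3.34% and 3.88% of all tested genes. Of the other genes of the pathway 4 were higher and 6 lower. Highest without overlap were Dlx3, a BMP-induced homeobox gene, at 0.108, 0.167, 0.278, 1.69 and 1.08 CPM in P28 and 12.3, 21.4, 9.95 and 9.49 CPM in P4M (4.32 ± 0.99, adjusted p = 0.0223), Skil, a repressor of Smad transcription (1.87 ± 0.35, adjusted p = 0.0107), and Klf10, a gene induced early by TGF-beta (1.40 ± 0.35, adjusted p = 0.0302). Skil was at 43.6, 65.7, 41.9, 24.8 and 48.5 CPM in P28 and at 174, 163, 125 and 197 CPM in P4M. Lowest were Kcp, a secreted BMP modulator (-5.09 ± 0.80, adjusted p = 0.00601), Thbs1, thrombospondin-1, which can activate latent TGF-beta (-4.11 ± 1.02, adjusted p = 0.0305), and Emilin1, which binds the TGF-beta precursor (-1.10 ± 0.25, adjusted p = 0.0208). Thbs1 fell from 9310.3, 5481, 6363, 17635 and 13723 CPM in P28 to 755, 616, 204 and 859 CPM in P4M. Over the list of TGF-beta-induced genes, 1 (Klf10) was higher and 1 (Snai2) lower of 9 in this contrast. The calls of Klf10, Thbs1 and Emilin1 were each lost in 7 of the 14 leave-outs of a clone, and that of Dlx3 in 4. Age of isolation and, as labelled, passage differ between these groups and cannot be told apart.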

How the data were processed

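Bulk RNA-seq libraries of 14 cultured clones were analysed from the tables that the authors deposited. By the methods and the submitters' processing notes, SMART-Seq v4 libraries were read single-end, aligned to mm10 with TopHat and Bowtie2 and counted with HTSeq for non-ambiguous reads, followed by DESeq2. The strand setting is not given in the sources used here. The deposited table of raw counts holds 30503 genes, and the deposited expected counts are equal to it for all of them. TPM were normalized by the authors for transcript length and sum to 999999 to 1000001 in each clone, and were used only to compare levels of different genes. Depth-normalized counts, regularized log2 values and FPKM were not used.

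Counts were fitted in R 4.3.3 with edgeR 4.0.16 (filterByExpr, TMM, robust quasi-likelihood fit without intercept over all 14 clones, tested on simulated data), which left 17358 genes. SE is the absolute log2 fold change divided by the root of F. P values were adjusted by Benjamini and Hochberg over all tested genes, with calls at 0.05. The contrasts were both cKO groups together, and each alone, against Fgfr3-WT, and P4M against P28, where the first 3 share their Fgfr3-WT clones. No term for the number in the column names (1303 or 2963) could be fitted, since each number holds 1 genotype. A count of 0 allows up to 3 counts, which is 0.0564 to 0.121 CPM per library. This covers counting error only, as reads had no molecular identifiers.

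The members and lists were chosen with earlier results of these data known. Values in every clone are given for members called in all cKO with a log2 fold change of at least 1 and no overlap. They are also given for members called in P4M against P28, and for the member of highest mean TPM in each role. Smad4, the only member of its role, was left out of this rule. Other genes of the pathway are named as the 3 highest and 3 lowest called without overlap. Exons of 16 of the 46 members overlap another gene of GENCODE M21. For the shift of a chromosome, log2(CPM + 0.5) of each gene was set against its average in Fgfr3-WT (without the clone itself), and the chromosome's median was taken less that of all autosomes. Genes needed an average log2 CPM of 3 or more. Alternatives were DESeq2 1.42.0, RLE or no scaling, no filter, at least 10 counts in every clone, expected counts (rounded), only the groups compared (for all cKO, the 9 clones pooled as 1 group), a minimum log2 fold change of 1 and each clone left out, and, added after seeing the data, Fgfr3-WT clones 1 and 5 or P28 clones 4 and 5 left out together. Promoters came from RefSeq. Figures were drawn with matplotlib 3.10.9 in Python 3.11.15.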

Additional observations from a re-analysis of the deposited data

Results flagged for a closer look

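For the 17 members chosen by the rule for values in every clone, 51 sets of clones of 1 group were searched for a clone far from its group. A clone was flagged when its gap to the nearest clone, as a share of the CPM range of its group, passed a cut-off for the group size. Such clones were found in 9 sets. A rate of 1 in 20, about 2.55 sets, would hold for independent sets of normally distributed values. CPM were used untransformed and the same 14 clones recur across members, so whether 9 exceeds chance cannot be decided. In P4M, clone 1 had the highest Ltbp2 (74.7 CPM), clone 3 the highest Tgfbr2 (313 CPM) and Bmp4 (115 CPM), and clone 4 the highest Smad7 (146 CPM). In P28, clone 1 had the highest Acvr1 (96.8 CPM) and clone 5 the lowest Smad1 (35.1 CPM). In Fgfr3-WT, clone 1 had the highest Acvr2a (43.4 CPM), and clone 5 the highest Bmp4 (2.77 CPM) and Id3 (242 CPM). Fgfr3-WT clone 5 was also the only clone of its group with Col1a2 above 1 CPM.

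For 3 members the change from Fgfr3-WT differed between the cKO groups by the edgeR test of P4M against P28. It was 1.42 log2 higher in P4M for Tgfb1 and 1.53 for Smad7, and for Ltbp2 it was -4.48. All 4 P4M clones lay above all 5 P28 clones for Tgfb1 and Smad7, while P4M clone 1 lay above P28 clone 5 for Ltbp2.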

How the results depend on the processing

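No call of a named member changed its direction under any alternative run. In all cKO against Fgfr3-WT, 16 members higher became 10 with a log2 fold change of at least 1, and leaving out each clone gave 13 to 17 higher and 4 to 10 lower, the extremes for lower without Fgfr3-WT clone 2 and without P4M clone 3. In P28 against Fgfr3-WT, 13 higher became 8 with only the groups compared and 6 with a log2 fold change of at least 1, and leaving out each clone gave 7 to 13 higher and 2 to 4 lower. In P4M against Fgfr3-WT, 7 lower became 4 with at least 10 counts in every clone, a filter that leaves Gdf5, Gdf6 and Chrdl1 untested, and leaving out each clone gave 14 to 15 higher and 6 to 8 lower. In P4M against P28, 2 higher became 5 with only the groups compared and 1 to 3 when each clone was left out. There, 1 lower became 2 with at least 10 counts in every clone, 4 with only the groups compared, 6 by DESeq2, 4 without Fgfr3-WT clones 1 and 5 together (added after seeing the data) and 0 to 3 when each clone was left out. The causes were not tested. RLE or no scaling stayed within 1.5 times of these counts. Expected counts are identical to the raw counts and so test nothing. With P28 clones 4 and 5 left out together, all cKO had 13 higher and 7 lower, and with Fgfr3-WT clones 1 and 5 left out together 17 higher and 5 lower. Genotype and the number in the column names cannot be told apart by any of these settings. No paired analysis was possible because the replicate numbers are running numbers within a group and the labels pair no clones.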

Other observations

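Outside the 46 members, Eng (endoglin, a coreceptor of TGF-beta and BMP) was high in single clones of every group. It was at 60.6, 6.77, 2.71, 128 and 6.25 CPM in Fgfr3-WT, at 1.68, 2.70, 50.6, 2.05 and 2.02 CPM in P28 and at 3.83, 72.4, 2.01 and 7.52 CPM in P4M clones. Thus 4 of the 14 clones were above 50 CPM and the other 10 below 8 CPM. Among the members, Inhbb (the activin B subunit) was at 33.2 CPM in Fgfr3-WT clone 2 and 26.9 CPM in P28 clone 4, and at no more than 6.74 CPM in any other clone. These genes were picked after a look at the values, and their spread among single clones was not tested.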
